A study of Mus musculus with 9 samples.

Results

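The insulin-like growth factor (IGF) system of the perinatal mouse heart was described through 9 genes, found by symbol in the deposited expression table among 48820 genes in all. They were the ligand gene *Igf1*, the receptor genes *Igf1r* and *Insr*, and the binding protein genes *Igfbp2*, *Igfbp3*, *Igfbp4*, *Igfbp5*, *Igfbp6* and *Igfbp7*. All 9 had a mean of at least 1 FPKM (fragments per kilobase of transcript, scaled to the mapped fragments of each heart) and were among the 13618 genes tested. RNA was sequenced from 9 whole hearts of C57BL/6J mice, with 3 biological replicates each at E18.5d (embryonic day 18.5), P1d (postnatal day 1) and P7d (postnatal day 7). Every heart was labelled wild type, untreated and male. The study collected these stages to ask how gene activity and metabolism change as the heart develops around birth.

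IGF1 and IGF2 are secreted growth factors that signal through the receptor tyrosine kinase IGF1R, while the insulin receptor INSR binds insulin and, in one of its splice forms, IGF2. In the extracellular fluid the growth factors are held by IGF binding proteins, which prolong their life and control how much of them reaches the receptors, and which are cut by dedicated proteases. IGF signalling through the PI3K and AKT kinases supports cardiomyocyte proliferation in the fetal heart and growth in cell size after birth. IGFBP7 differs from the other binding proteins in its weak affinity for IGFs, and is known as a matrix protein of blood vessels.

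The promoters of *Igfbp2*, *Igfbp3*, *Igfbp5* and *Igfbp7* are shown because they are the binding protein genes whose P7d hearts lay apart from those of both earlier stages, on which the change in make-up turns. The P7d hearts of the receptor gene *Igf1r* lay apart too, and its window, with 2 GGGCGG matches and 79.2% GC, is not printed. The bases lie 140 to 21 bases upstream of the transcription start in RefSeq (GRCm38.p6), 5′ to 3′ on the strand of the gene. Capitals mark letters that match the TATA box letters TATANA, their variant TTTAAA, the GC box letters GGGCGG, the CCAAT box or the hypoxia-response core ACGTG, on either strand, with overlapping matches merged.
*Igfbp2* (chr1:72824340-72824459, plus strand): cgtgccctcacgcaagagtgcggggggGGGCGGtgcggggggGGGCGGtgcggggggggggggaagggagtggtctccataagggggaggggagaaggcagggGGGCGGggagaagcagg
*Igfbp3* (chr11:7213944-7214063, minus strand): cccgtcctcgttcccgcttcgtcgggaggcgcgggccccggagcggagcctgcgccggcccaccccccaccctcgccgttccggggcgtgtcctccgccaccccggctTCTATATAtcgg
*Igfbp5* (chr1:72874886-72875005, minus strand): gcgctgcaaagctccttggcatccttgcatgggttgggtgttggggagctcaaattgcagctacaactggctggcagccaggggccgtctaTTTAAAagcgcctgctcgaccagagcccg
*Igfbp7* (chr5:77408066-77408185, minus strand): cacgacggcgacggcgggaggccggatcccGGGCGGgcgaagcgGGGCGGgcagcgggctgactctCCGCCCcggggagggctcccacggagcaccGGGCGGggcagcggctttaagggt
The window of *Igfbp7*, which rose, held 4 GGGCGG matches, and that of *Igfbp2*, which fell, held 3. *Igfbp3* had 2 overlapping TATANA matches, the nearest 30 bases upstream, and *Igfbp5* had TTTAAA 49 bases upstream. Over the same window of all 32851 promoters in the table, GGGCGG was found in 24.4%, TATANA in 11.4%, TTTAAA in 5.49%, CCAAT in 21.4% and ACGTG in 9.03%. The GC content was 76.7% for *Igfbp2*, 75.8% for *Igfbp3*, 59.2% for *Igfbp5* and 79.2% for *Igfbp7*, against a median of 54.2% over all promoters. *Igf1*, *Igf1r*, *Igfbp4* and *Igfbp6* were also matched in the table, and *Insr* was not. The window of *Igfbp4*, which did not pass the test in any comparison, held a TATANA match 28 bases upstream and 70.8% GC. That of *Igfbp6* held 2 CCAAT matches. The start used for *Igf1* lay 2846 bases from its start in GENCODE, and its window overlapped an *Igf1* exon.

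Cardiomyocyte markers (*Tnnt2*, *Actn2*, *Myh6*, *Ryr2* and *Pln*) summed to 8883 to 9074 FPKM at E18.5d, 12670 to 13790 at P1d and 13260 to 13760 at P7d, with 4 of 5 higher and 1 (*Tnnt2*) lower between E18.5d and P7d. The estimated depth was 25.25 to 45.5 times 1e6 fragments per heart, so that 1 fragment on a transcript of 1 kilobase was worth 0.022 to 0.0396 FPKM. In 4 hearts (E18.5d replicates 1 and 3, P7d replicates 2 and 3) the female-specific *Xist* was at 58.03 FPKM or more and 4 Y-linked genes were at 0, against the male label. In the other 5 hearts *Xist* was at most 0.11 FPKM. Airway and lung genes, nearly all of it the secretoglobins *Scgb3a1*, *Scgb3a2* and *Scgb1a1*, summed to 90.94 FPKM in E18.5d replicate 1, 251.5 in E18.5d replicate 2 and 492.7 in P1d replicate 1, and to at most 3.2 elsewhere, with *Sftpc* at most 0.44 in any heart. The part of either in the results was not tested beyond the fits without these hearts. The p-values of the stage comparisons weigh a difference against the spread between hearts, pooled over the 3 stages and moderated over all genes. A wide stage thus also bears on the comparison of the other 2. The standard error of *Igfbp3* between P7d and E18.5d was 0.231, and 0.074 with only these 2 stages fitted. In bulk tissue fewer cells of a type and less RNA per cell cannot be told apart.

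Between P7d and E18.5d 6 of the 9 genes passed the test (limma on log2(FPKM + 1), adjusted p under 0.05 over all genes tested), 2 higher (*Insr*, *Igfbp7*) and 4 lower (*Igf1r*, *Igfbp2*, *Igfbp3*, *Igfbp5*), where 49.4% of all genes tested passed, 12.5% higher and 36.9% lower. Scaling by median of ratios turned the split of all genes from 1706 higher and 5025 lower to 2905 and 2848, and that of the 9 to 3 and 4. The median log2 change of the 9 was -0.15 and that of all genes -0.17. From E18.5d to P1d 4 passed, 3 higher (*Insr*, *Igfbp6*, *Igfbp7*) and 1 lower (*Igfbp2*), where 46.0% of all genes did, 18.4% higher and 27.6% lower. All genes then split into 2505 higher and 3755 lower, with 1175 and 4694 at an equal sum and 3154 and 3112 by median of ratios. The count was 2 when E18.5d replicate 1, E18.5d replicate 2 or P1d replicate 1 was dropped, and 5 when P1d replicate 3 was. Over all genes 5389, 5157 and 5436 then passed, and 6322 without P1d replicate 3, against 6260 with every heart. Between P7d and P1d 7 passed, 1 higher (*Igfbp7*) and 6 lower, where 44.2% of all genes did, 15.5% higher and 28.6% lower, and the median of the 9 was -0.67 against -0.09 over all genes. The split of all genes, 2112 higher and 3901 lower, turned to 3293 and 2234 with an equal sum of protein-coding nuclear genes (of the 9, 2 and 5), to 2200 and 1729 at an equal sum (1 and 5) and to 2986 and 2700 by median of ratios (1 and 6). Hearts did not overlap between groups for 6, 3 and 7 of the 9 genes in these comparisons, which share hearts, against 62.5%, 54.4% and 53.6% of all genes.

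**Figure D1:**
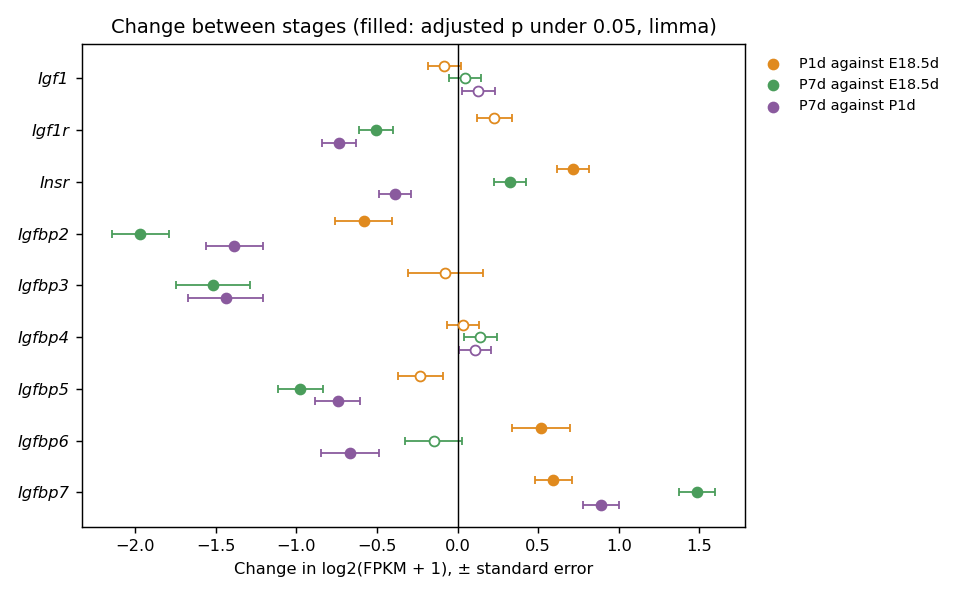
Difference between stages on the log2(FPKM + 1) scale (x axis, with SE) for each of the 9 genes (y axis), where colours mark the comparison and filled points have a limma adjusted p under 0.05. *Igfbp7* lay to the right in all 3 comparisons, from 0.59 to 1.48, and *Igfbp2* to the left in all 3, from -0.58 to -1.97.

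The counts changed when hearts that stood apart were left out. Without the 4 hearts with *Xist*, 1 heart is left at E18.5d and 1 at P7d, and the spread comes from the 3 P1d hearts, so lost calls there do not measure an effect of sex. In limma 0 of the 9 genes then passed in any comparison, where 1.42% of all genes passed between P7d and E18.5d, 6.04% between P1d and E18.5d and 1.31% between P7d and P1d. At an unadjusted p under 0.05, 4, 3 and 7 of the 9 passed in these comparisons, where 24.7%, 29.4% and 25.6% of all genes did. The log2 changes between P7d and E18.5d were then -2.09 for *Igfbp2*, -1.55 for *Igfbp3*, -0.96 for *Igfbp5*, 1.28 for *Igfbp7*, -0.51 for *Igf1r* and 0.17 for *Insr*, with adjusted p from 0.0579 to 0.666. With *Xist* as a covariate in place of leaving hearts out, 6 genes passed between P7d and E18.5d (6 without it), 3 between P1d and E18.5d (4 without it) and 6 between P7d and P1d (7 without it), with *Igfbp6* lost in both of the latter. Of all 13618 genes tested, 6451, 4500 and 3905 passed with the covariate, against 6731, 6260 and 6013 without it. Without the 3 hearts with airway genes, which leaves 1 heart at E18.5d, 3 genes passed between P7d and E18.5d, 2 between P1d and E18.5d and 5 between P7d and P1d, where 23.9%, 18.1% and 29.2% of all genes did. The log2 changes between P7d and E18.5d without these 3 hearts were -1.62 for *Igfbp2*, -1.37 for *Igfbp3*, -1.05 for *Igfbp5* and 1.69 for *Igfbp7*. They were -0.52 for *Igf1r* and 0.37 for *Insr*. *Igf1r*, *Insr* and *Igfbp3* no longer passed in that comparison. In both fits that leave hearts out, a lone heart is assumed to vary like the other stages.

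The ligand gene *Igf1* showed no difference between stages that passed the test. *Igf1* (chr10:87858265-87937042) was at 8.76, 10.68 and 10.37 FPKM in the E18.5d hearts, at 9.03, 8.57 and 10.4 in the P1d hearts and at 9.22, 10.86 and 10.8 in the P7d hearts. These ranges overlapped at all stages. Its mean was 9.94 ± 1.03 FPKM (SD, n = 3) before birth, 9.33 ± 0.952 at P1d and 10.3 ± 0.93 by P7d. On the log2(FPKM + 1) scale, *Igf1* differed by 0.05 ± 0.10 (SE) between P7d and E18.5d (limma, adjusted p = 0.722). The sign of this small difference turned to -0.03 without E18.5d replicate 1.

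**Figure D2:**
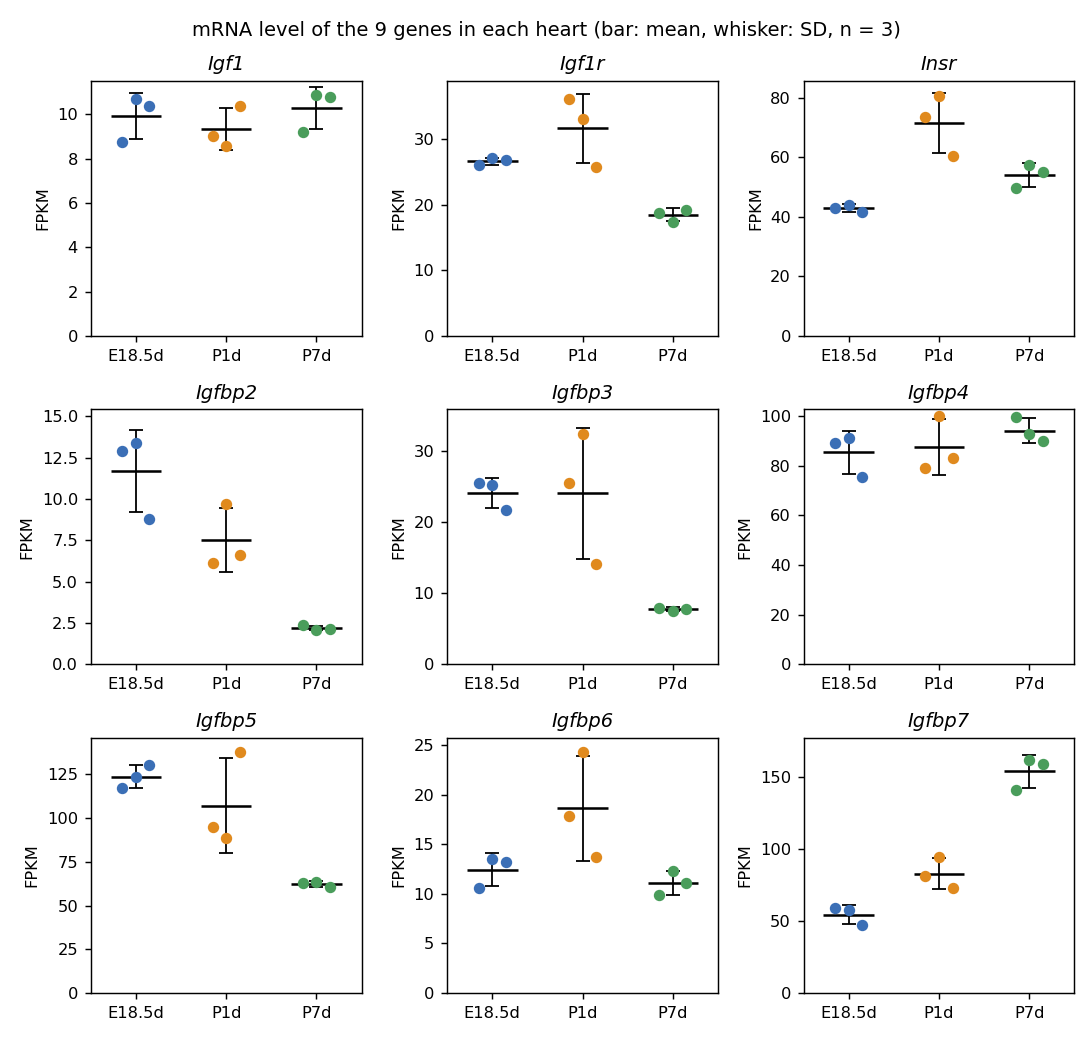
mRNA level in FPKM (y axis) of the 9 genes in each heart at E18.5d, P1d and P7d (x axis), where points are hearts, bars are means and whiskers are the SD of 3 hearts. *Igfbp7* lay highest and *Igfbp2*, *Igfbp3*, *Igfbp5* and *Igf1r* lowest in the P7d hearts, *Insr* peaked at P1d, and *Igf1* and *Igfbp4* overlapped at all stages.

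The receptors followed different courses. *Insr* was highest in the P1d hearts and *Igf1r* was lowest in the P7d hearts. *Igf1r* (chr7:67952827-68233668) encodes the main signalling receptor of both IGFs, and *Insr* (chr8:3122061-3279617) the closely related insulin receptor. *Igf1r* was at 25.97, 27.06 and 26.79 FPKM at E18.5d, at 36.02, 33.02 and 25.8 at P1d and at 18.77, 17.31 and 19.25 at P7d. All P7d hearts lay below all others, whereas P1d replicate 3 fell under the E18.5d range. The mean of 18.4 ± 1.01 FPKM at P7d was 0.693 times that of 26.6 ± 0.568 at E18.5d (log2 change -0.51 ± 0.11, limma, adjusted p = 0.00367) and 0.583 times that of 31.6 ± 5.25 at P1d (-0.73 ± 0.11, adjusted p = 0.000601). Between P1d and E18.5d *Igf1r* differed by 0.23 ± 0.11 (adjusted p = 0.108), and without P1d replicate 3 by 0.36 (adjusted p = 0.00302).

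*Insr* was at 42.95, 44.14 and 41.65 FPKM at E18.5d, at 73.47, 80.46 and 60.47 at P1d and at 49.78, 57.38 and 55.08 at P7d. The 3 stages did not overlap. *Insr* rose 1.67-fold from 42.9 ± 1.25 FPKM at E18.5d to 71.5 ± 10.1 at P1d (log2 change 0.71 ± 0.10, limma, adjusted p = 0.000389). At P7d it was at 54.1 ± 3.9 FPKM, lower than at P1d (-0.39 ± 0.10, adjusted p = 0.0111) and higher than at E18.5d (0.32 ± 0.10, adjusted p = 0.0217). This last call was lost on leaving out E18.5d replicate 1 (adjusted p = 0.0535), E18.5d replicate 3 (0.064), P7d replicate 2 (0.0781) or P7d replicate 3 (0.0612). The lower level at P7d than at P1d did not pass when columns were scaled to an equal sum (adjusted p = 0.0833) or to an equal sum of protein-coding nuclear genes (0.0577). Neither P7d difference of *Insr* passed without the 3 hearts with airway genes, which leaves 1 heart at E18.5d and 2 at P1d.

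Because a ratio of 2 genes in the same heart does not depend on how the column was scaled, the balance of the receptors was taken per heart. *Igf1r* to *Insr* was 0.605, 0.613 and 0.643 in the E18.5d hearts, 0.49, 0.41 and 0.427 in the P1d hearts and 0.377, 0.302 and 0.35 in the P7d hearts. The stages followed each other downwards without overlap. Over the 3 stages the exact two-sided permutation p was 0.003571, the smallest this design gives, or 0.01071 adjusted over the 3 ratios tested. *Igf1* to *Igf1r* was 0.337, 0.395 and 0.387 at E18.5d, 0.251, 0.26 and 0.403 at P1d and 0.491, 0.627 and 0.561 at P7d (exact permutation p = 0.01429, adjusted 0.02143). The P7d hearts were the highest, and the exact permutation p without P7d replicate 2 was 0.07143.

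**Figure D3:**
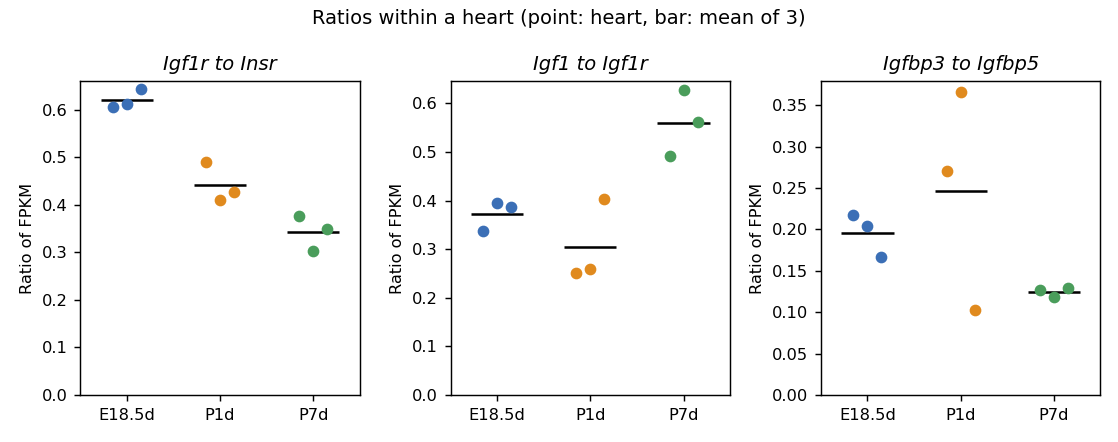
Ratio of the FPKM of 2 genes within each heart (y axis) at the 3 stages (x axis), where points are hearts and bars are means of 3. *Igf1r* to *Insr* fell in steps without overlap between stages, *Igf1* to *Igf1r* was highest at P7d, and *Igfbp3* to *Igfbp5* spread from 0.102 to 0.366 among the P1d hearts.

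Among the binding protein genes, *Igfbp7* rose at each stage while *Igfbp2*, *Igfbp3* and *Igfbp5* were lower at P7d than at either earlier stage. *Igfbp7* (chr5:77349240-77408041) was at 58.94, 57.24 and 46.95 FPKM at E18.5d, at 81.28, 93.95 and 72.68 at P1d and at 140.41, 161.38 and 158.86 at P7d. No stage overlapped another. Its mean rose from 54.4 ± 6.49 to 82.6 ± 10.7 FPKM by P1d (log2 change 0.59 ± 0.11, limma, adjusted p = 0.00223) and to 153.5 ± 11.5 at P7d, 2.82 times the fetal level (1.48 ± 0.11, adjusted p = 1.11e-05). Of the 1209 exonic bases of *Igfbp7*, 85 are shared with *Polr2b* on the opposite strand, and the sources used here do not say that counting used the strand. *Polr2b*, which encodes a subunit of RNA polymerase II, was at 30.5 ± 1.18 FPKM at E18.5d and at 25.2 ± 1.67 at P7d (limma log2 change -0.27, adjusted p = 0.00729). Between P7d and P1d it did not pass (limma log2 change -0.01, adjusted p = 0.875). The part of the shared bases in the level of *Igfbp7* was not tested.

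*Igfbp2* (chr1:72824503-72852474), a binding protein prominent in fetal tissues, was at 12.88, 13.39 and 8.82 FPKM at E18.5d, at 6.15, 9.71 and 6.64 at P1d and at 2.37, 2.1 and 2.14 at P7d. The P7d hearts lay below all others, and the E18.5d and P1d ranges overlapped. The mean fell from 11.7 ± 2.5 FPKM at E18.5d to 2.2 ± 0.146 at P7d, or 0.188 of the fetal level (log2 change -1.97 ± 0.18, limma, adjusted p = 2.85e-05). The fall to 7.5 ± 1.93 FPKM at P1d passed the test (-0.58 ± 0.18, adjusted p = 0.0227). It did not pass without E18.5d replicate 1 (adjusted p = 0.0772), E18.5d replicate 2 (0.0833), P1d replicate 1 (0.0798) or P1d replicate 3 (0.0649), and without the 3 hearts with airway genes the change was -0.12 (0.715).

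*Igfbp5* (chr1:72857932-72874884) is the neighbour of *Igfbp2*, transcribed towards it from 5457 bases away, and encodes a binding protein that adheres to the matrix. It was at 117.09, 123.59 and 130.43 FPKM at E18.5d, at 94.76, 88.56 and 138.14 at P1d and at 62.93, 63.49 and 60.67 at P7d. The P7d hearts were the lowest and P1d replicate 3 the highest of all 9. The mean at P7d of 62.4 ± 1.49 FPKM was 0.504 times the 123.7 ± 6.67 at E18.5d (log2 change -0.98 ± 0.14, limma, adjusted p = 0.00043). Between P1d and E18.5d it differed by -0.23 ± 0.14 (adjusted p = 0.201), and without P1d replicate 3 by -0.43 (adjusted p = 0.000941).

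*Igfbp3* (chr11:7206086-7213923) encodes the main carrier of IGFs in adult blood, where it forms a complex with the acid-labile subunit. It was at 25.5, 25.21 and 21.75 FPKM at E18.5d, at 25.59, 32.43 and 14.15 at P1d and at 7.97, 7.5 and 7.86 at P7d. The P7d hearts lay below all others, and the P1d hearts reached both above and below the E18.5d range. *Igfbp3* fell to 7.78 ± 0.246 FPKM at P7d, 0.322 of the level at E18.5d (log2 change -1.52 ± 0.23, limma, adjusted p = 0.00062). From E18.5d to P1d the difference was -0.08 ± 0.23 (adjusted p = 0.809), and it turned to 0.25 (adjusted p = 0.0906) without P1d replicate 3. *Igfbp3* to *Igfbp5* within a heart ran from 0.167 to 0.218 at E18.5d, from 0.102 to 0.366 at P1d and from 0.118 to 0.13 at P7d. The exact permutation test gave p = 0.2357 over all hearts and 0.003571 without P1d replicate 3.

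*Igfbp4* and *Igfbp6* did not differ between P7d and E18.5d by the test. *Igfbp4* (chr11:99041244-99054392), an inhibitor of IGF action that the protease PAPPA cuts, was at 89.07, 91.3 and 75.58 FPKM at E18.5d, at 79.2, 100.12 and 83.06 at P1d and at 99.55, 92.57 and 89.86 at P7d. All 3 stages overlapped, and the log2 change was 0.14 ± 0.10 from E18.5d to P7d (limma, adjusted p = 0.267). Scaling by median of ratios brought it to 0.32 (adjusted p = 0.0225), quantile normalization to 0.27 (0.0316) and protein-coding sum to 0.31 (0.0152), each past the threshold. *Igfbp6* (chr15:102144362-102149511), which prefers IGF2 over IGF1, was at 10.55, 13.57 and 13.25 FPKM at E18.5d, at 17.87, 24.3 and 13.76 at P1d and at 9.9, 12.33 and 11.1 at P7d. The P1d hearts were the highest. From E18.5d to P1d it rose by 0.52 ± 0.18 (adjusted p = 0.0383), and from P1d to P7d it fell by 0.67 ± 0.18 (adjusted p = 0.0138). The rise was lost on leaving out any E18.5d heart, P1d replicate 1 or 2, or P7d replicate 3, with adjusted p from 0.0539 to 0.126, and with an equal sum (0.0862) or an *Xist* covariate (0.11). The fall was lost with the *Xist* covariate (adjusted p = 0.0563) and without the hearts with airway genes (0.0709). No P1d heart had *Xist*.

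At the deposited scaling the summed FPKM of the 6 binding protein genes was similar in the 3 stages, while its make-up moved from *Igfbp5* to *Igfbp7*. The sum was 311.7 ± 13.9 FPKM before birth, 327.4 ± 22.1 at P1d and 331.0 ± 8.13 by P7d, with overlapping ranges. Unlike the shares, the sum depends on the scaling. The median-of-ratios factors, by which columns are divided, were 1.046 to 1.078 at E18.5d and 0.9183 to 0.9466 at P7d. That scaling raises the sum at P7d against E18.5d. *Igfbp5* held 39.8% ± 3.63 (SD, n = 3) of it in the E18.5d hearts, 32.8% ± 8.48 in the P1d hearts and 18.9% ± 0.572 in the P7d hearts. *Igfbp7* held 17.4% ± 1.49, then 25.2% ± 2.69 and 46.4% ± 2.53. *Igfbp4* held 27.3% ± 1.62, 26.7% ± 1.79 and 28.4% ± 2.06. *Igfbp2* went from 3.73% at E18.5d to 0.667% at P7d, and *Igfbp3* from 7.74% to 2.35%. *Igfbp6* held 4.0%, 5.67% and 3.35%. These shares were not tested and sum to the whole, so that a rise in 1 gene lowers the others.

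**Figure D4:**
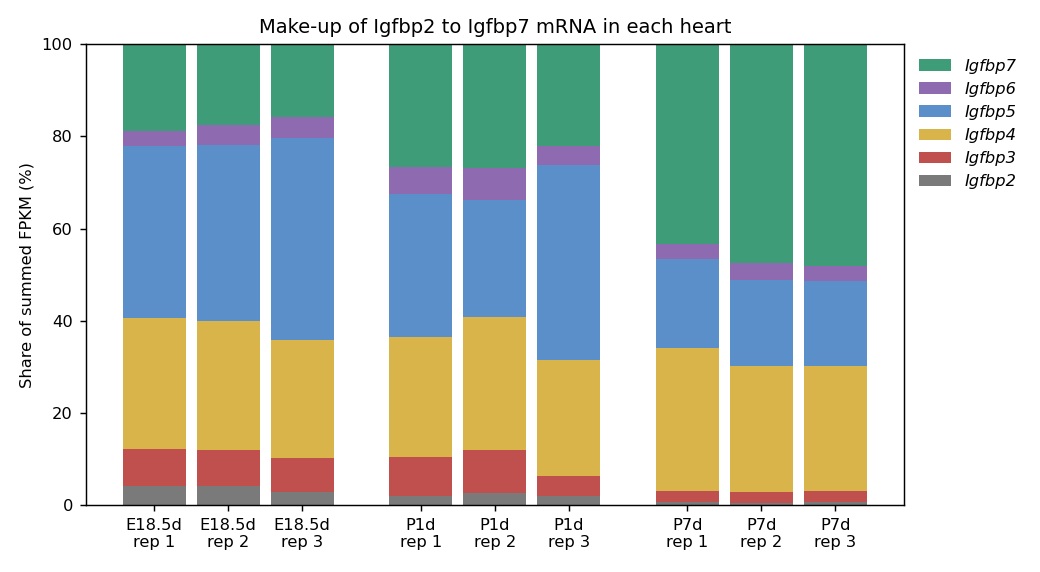
Share in percent (y axis) of each gene in the summed FPKM of *Igfbp2* to *Igfbp7*, with 1 stacked bar per heart (x axis). *Igfbp7* took 46.4% on average at P7d against 17.4% at E18.5d, and *Igfbp5* 18.9% against 39.8%.

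The order of the levels, in FPKM and so per length, changed with these shifts. At E18.5d the order was *Igfbp5*, *Igfbp4*, *Igfbp7*, *Insr*, *Igf1r* and *Igfbp3*, each clear of the next, and then *Igfbp6*, *Igfbp2* and *Igf1*, whose hearts overlapped. At P7d it was *Igfbp7*, *Igfbp4*, *Igfbp5*, *Insr*, *Igf1r*, *Igfbp6*, *Igf1*, *Igfbp3* and *Igfbp2*, where *Igfbp6* and *Igf1* alone overlapped as neighbours. At P1d the neighbours overlapped except for *Insr* above *Igf1r* and *Igfbp6* above *Igf1*. P1d replicate 3 was below both other P1d hearts for 5 genes (*Igf1r*, *Insr*, *Igfbp3*, *Igfbp6*, *Igfbp7*), above both for 2 (*Igf1*, *Igfbp5*) and between them for 2. P1d replicate 2 stood apart too. It was the highest P1d heart for *Insr*, *Igfbp2*, *Igfbp3*, *Igfbp4*, *Igfbp6* and *Igfbp7*, and the lowest for *Igf1* and *Igfbp5*. Its equal-sum scaling factor, 1.223, was the highest of all hearts. How often each P1d heart was the extreme one over all genes was not counted.

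Markers of other cell types moved over the same stages, and their part in the results was not tested. Epicardial markers summed to 66.65 to 78.57 FPKM at E18.5d, 56.0 to 81.27 at P1d and 30.59 to 36.21 at P7d. Between E18.5d and P7d 4 of 5 were lower and 0 higher, where 36.9% of all genes were lower and 12.5% higher. Endothelial markers summed to 342.3 to 374.6, 388.4 to 426.2 and 440.9 to 459.0 FPKM, with 4 of 6 higher and 1 lower. Fibroblast markers summed to 1221 to 1283, 1079 to 1460 and 1915 to 1935 FPKM, with 3 of 6 higher and 0 lower. Smooth muscle and pericyte markers ran from 814.8 to 1000, 876.9 to 954.9 and 837.1 to 926.4 FPKM, with 4 of 7 higher and 2 lower. Macrophage markers were at 42.18 to 55.38, 62.39 to 91.95 and 58.69 to 64.67 FPKM, with 1 of 5 higher and 0 lower. Brown fat markers summed to 6.13 to 7.77 FPKM at E18.5d, 25.93 to 26.33 at P1d and 33.62 to 38.94 at P7d, with 3 of the 3 tested higher, mostly *Cidea*, and *Ucp1* at 0 in every E18.5d heart and at 5.77 to 7.26 at P7d. None of the markers in these lists was at 0 in every heart.

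The genes most alike to the ligand and receptors were taken as the 3 protein-coding genes with the highest Pearson r over the 9 hearts, which fall into 3 stages. For *Igf1* they were *Atf7* (r = 0.898), *Zmiz1* (0.886) and *Dusp10* (0.844). For *Igf1r* they were *Mysm1* (0.993), *Chrm2* (0.988) and *Daam2* (0.988). For *Insr* they were *Lrrc24* (0.995), *Elmod3* (0.992) and *Ehd1* (0.989).

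In the rest of the IGF pathway, 50 further genes were listed by role and 42 of them tested. Between P7d and E18.5d 9 rose, 12 fell and 21 did not pass, and between P1d and E18.5d 7 rose, 7 fell and 28 did not pass. Between P7d and P1d 5 rose, 14 fell and 23 did not pass. Those that passed were 21 of 42, 14 of 42 (33.3%) and 19 of 42 (45.2%), against 49.4%, 46.0% and 44.2% of all genes. The lists were fitted at the deposited scaling alone, and other scalings turned the split of all genes. Of the other ligands, carriers and receptors (8 genes, 3 tested), *Igf2*, *Igf2r* and *Igfbpl1* all fell by P7d, as 36.9% of all genes did. *Igf2*, the fetal IGF, was at 692.25, 731.05 and 720.18 FPKM at E18.5d, at 559.73, 628.58 and 597.0 at P1d and at 220.32, 242.57 and 228.8 at P7d. Its stages did not overlap, and its log2 change by P7d was -1.63 ± 0.06 (limma, adjusted p = 2.56e-07). In the same hearts *Igf2* was 68.45 to 79.02 times *Igf1* in FPKM at E18.5d, 57.4 to 73.35 times at P1d and 21.19 to 23.9 times at P7d. *Igf2r*, the receptor that clears IGF2, was at 340.3 ± 14.4 FPKM at E18.5d and 340.8 ± 48.0 at P1d, and fell to 146.6 ± 6.57 at P7d (-1.21 ± 0.10, adjusted p = 1.49e-05). *Igfbpl1* was at 2.8 FPKM at E18.5d and at 1.83 at P1d (-0.43, adjusted p = 0.00561).

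The insulin genes were barely measured, with *Ins1* at 0 in every heart and *Ins2* at most 0.76 FPKM. *Insrr* was at most 0.03 FPKM. *Igfals*, which encodes the acid-labile subunit, was at 0.02 to 0.12 FPKM at E18.5d, 0.13 to 0.31 at P1d and 1.13 to 1.25 at P7d, under the filter for testing. *Igfbp1*, a liver binding protein gene 3539 bases from *Igfbp3*, was at 2.67 FPKM in P1d replicate 2 and at most 0.13 in the other hearts. In P1d replicate 2 liver markers summed to 30.49 FPKM, against at most 7.89 elsewhere.

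Of the genes for proteases that cut the binding proteins and for their inhibitors (5 genes, 4 tested), 1 rose, 1 fell and 2 did not pass between P7d and E18.5d. *Htra1*, a secreted serine protease, was at 61.96, 61.83 and 52.84 FPKM at E18.5d, at 45.32, 66.02 and 58.71 at P1d and at 114.54, 126.32 and 120.98 at P7d, where it was higher in every heart. Its log2 change by P7d was 1.02 ± 0.12 (limma, adjusted p = 0.000163). *Stc1*, which encodes a stanniocalcin that inhibits PAPPA, fell from 3.64 ± 0.0625 FPKM at E18.5d to 1.95 ± 0.48 at P1d (-0.66, adjusted p = 0.00174) and 1.26 ± 0.101 at P7d (-1.04, adjusted p = 0.000124). *Pappa2* and *Stc2* did not pass at either postnatal stage. *Pappa*, below the filter and so not tested, was at 0.71 to 0.96 FPKM at E18.5d, 0.88 to 2.08 at P1d and 0.33 to 0.42 at P7d.

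The growth hormone axis, which drives *Igf1* in liver, had 5 of 6 genes higher and 1 lower between E18.5d and P7d, against 12.5% and 36.9% of all genes. Cardiac *Igf1* did not pass the test. *Stat5a*, a transcription factor of this axis, rose from 3.14 ± 0.341 FPKM to 7.67 ± 0.838 at P1d (log2 change 1.07, limma, adjusted p = 7.27e-05) and 8.57 ± 1.05 at P7d (1.21, adjusted p = 3.17e-05). *Cish*, a feedback inhibitor, rose from 16.3 ± 0.837 FPKM to 30.7 ± 4.65 at P1d and 27.4 ± 1.61 at P7d. *Jak2*, the kinase bound to the growth hormone receptor, was lower at P7d (-0.33, adjusted p = 0.00448). *Stat5b* was lower at P1d (-0.21, adjusted p = 0.0193) but higher at P7d (0.32, adjusted p = 0.00232), both against E18.5d.

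Of the receptor adaptors and feedback genes (11 genes, 9 tested), 1 rose, 1 fell and 7 did not pass between P7d and E18.5d. Thus 22.2% passed, against 49.4% of all genes. *Irs2*, an adaptor of the insulin receptor, was at 4.02, 4.46 and 4.08 FPKM at E18.5d, at 18.83, 21.99 and 19.03 at P1d and at 4.85, 6.29 and 6.56 at P7d. It was 4.76 times higher at P1d than at E18.5d (log2 change 2.01 ± 0.11, limma, adjusted p = 2.28e-06), the stage at which *Insr* was also highest. *Grb10*, an inhibitor of both receptors, fell from 395.0 ± 8.56 FPKM to 244.1 ± 10.1 at P1d (-0.69, adjusted p = 1.13e-05) and 132.0 ± 2.55 at P7d (-1.57, adjusted p = 1.64e-07). *Sos1* was lower at P1d (-0.40, adjusted p = 0.00275).

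**Figure D5:**
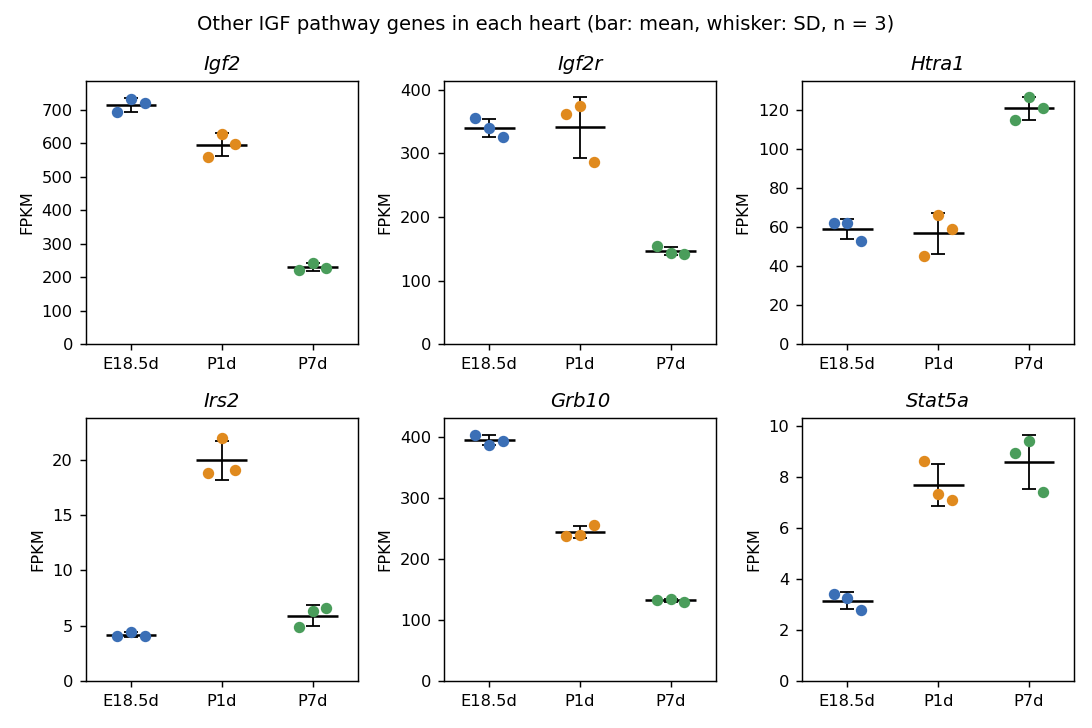
mRNA level in FPKM (y axis) of 6 other IGF pathway genes in each heart at the 3 stages (x axis), where points are hearts, bars are means and whiskers are the SD of 3 hearts. *Igf2* and *Grb10* fell at each stage, *Igf2r* fell by P7d, *Htra1* rose by P7d, *Irs2* stood out at P1d and *Stat5a* was higher at both postnatal stages.

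In the PI3K, AKT and FOXO arm (20 genes), 2 rose, 6 fell and 12 did not pass between P7d and E18.5d. *Akt2*, the AKT kinase tied to insulin action, rose from 46.0 ± 1.31 to 64.5 ± 3.02 FPKM (log2 change 0.48, limma, adjusted p = 0.000647). *Pik3r2*, a regulatory subunit of PI3K, rose (0.27, adjusted p = 0.0154) and *Foxo4* fell (-0.44, adjusted p = 0.0219). At P1d 4 rose and 1 fell, so that 25.0% passed against 46.0% of all genes. *Foxo3*, a transcription factor that AKT keeps out of the nucleus, was at 31.62, 41.76 and 22.24 FPKM at P1d, above all hearts of the other stages (0.79 ± 0.17 against E18.5d, adjusted p = 0.005). *Mtor* rose (0.28, adjusted p = 0.0157) and *Pik3cb* fell (-0.24, adjusted p = 0.0361) at P1d.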

How the data were processed

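RNA-seq of 9 mouse hearts was used, with 3 biological replicates per stage. Per the labels, libraries were made from total RNA with a NEBNext Ultra kit, and the submitters' processing notes name STAR and the genome build GRCm38 (mm10), without versions. The counting tool and the use of strand are not given in the sources used here. The deposited table holds FPKM computed by the authors, to 2 decimals, and every column belonged to a sample. The 9 genes and all gene lists were chosen with earlier results of these data known. Identifiers were matched to GENCODE M21 (48144 of 48820), which gave positions.

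Values were transformed to log2(FPKM + 1), which understates the change of low genes. A single linear model with the 3 stages was run in limma 3.58.1 (R 4.3.3; lmFit, then contrasts.fit and trended eBayes) on the 13618 genes whose average across hearts reached 1 FPKM. P-values were adjusted by Benjamini-Hochberg over these genes at a threshold of 0.05. Ratios within a heart were tested by an exact two-sided permutation of the log2 ratio over 1680 assignments to stages. Pathway genes were named by the 2 largest rises and 2 largest falls per list at P7d and at P1d against E18.5d, among those past the threshold without overlap of hearts. One gene this rule names is not reported here. All genes of the ligand and protease lists could be named, and for *Igf1*, *Igf1r* and *Insr* the 3 most alike genes.

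Steps between low FPKM values gave the depth (87.3% to 90.9% of these were whole fragments within 0.2) in a way tested on simulated data. In simulated data with 200 of 13618 genes changed by 1 on the log2 scale, 178 were called at P7d against E18.5d, with 10 unchanged genes. Alternatives changed the pseudocount (0.1), the filter (none, or an average of 5 FPKM), the scaling of columns (equal sum, median of ratios, quantiles, protein-coding nuclear sum) and the trend of eBayes, fitted the compared stages alone, added a replicate block or an *Xist* covariate, asked for an absolute log2 change of 1 or more, and left out hearts. Leaving out the hearts with airway genes was chosen after seeing the data. Python 3.11.15, pandas 2.3.3, numpy 2.4.6, scipy 1.17.1 and matplotlib 3.10.9 were used.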

Additional observations from a re-analysis of the deposited data

How the results depend on the processing

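The counts of the 9 genes that passed the test moved with the hearts used. Leaving out each heart in turn gave 5 to 6 genes between P7d and E18.5d, 2 to 5 between P1d and E18.5d and 7 in every case between P7d and P1d. Of all 13618 genes, 5545 to 7167, 5157 to 6322 and 4837 to 5877 then passed in these comparisons. Without the 4 hearts with *Xist* the counts were 0, 0 and 0, and without the 3 hearts with airway genes 3, 2 and 5. An absolute log2 change of at least 1 left 3, 0 and 2, and of all 13618 genes 650, 716 and 555. Between P1d and E18.5d, 2 genes passed with no filter and 2 with only the compared stages in the fit. Over all genes 6470 of 27255 passed with no filter and 5560 of 13618 with only these stages. With the filter and all 3 stages it was 6260 of 13618. Scaling by median of ratios moved the median log2 change of all genes between P7d and E18.5d from -0.17 to -0.02.

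Directions turned only in genes that had not passed the test. Between P7d and E18.5d, *Igfbp6* changed to 0.018 by median of ratios, 0.0032 by quantile normalization and 0.0055 by protein-coding sum, and *Igf1* to -0.19 without the hearts with *Xist* and -0.013 without the hearts with airway genes, and from -0.033 to 0.12 on leaving out each heart (the lowest without E18.5d replicate 1). *Igf1* between P7d and P1d changed to -0.012 without the hearts with *Xist*. Between P1d and E18.5d, *Igfbp4* changed to -0.14 with an equal sum, -0.0595 with an *Xist* covariate and -0.069 without the hearts with *Xist*. On leaving out each heart it ran from -0.067 (without P1d replicate 2) to 0.0999, with -0.051 without E18.5d replicate 3, and *Igfbp3* from -0.32 to 0.25, the latter without P1d replicate 3. The causes were not tested.

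The log2 difference of *Igf1r* to *Insr* between P7d and E18.5d was -0.86 (-0.93 to -0.77 without each heart) and -0.70 without the hearts with *Xist* (exact permutation p = 0.2). That leaves 1 heart at E18.5d and 1 at P7d, with 20 assignments and a smallest p of 0.1, so neither this p nor the next ratio's can pass there, and they say nothing of stability. For *Igf1* to *Igf1r* it was 0.58 (0.50 to 0.67 without each heart), with an exact permutation p of 0.4 at 0.32 without the hearts with *Xist*, 0.1 at 0.53 without the hearts with airway genes and 0.05556 at 0.58 with a replicate block. For *Igfbp3* to *Igfbp5* it ran from -0.76 to -0.56 without each heart, and it passed at -0.64 without P1d replicate 3. No pairing of hearts by replicate number was seen, though so few hearts cannot show that there was none. Same-numbered hearts deviated together with r from -0.055 to 0.112 over 9 pairs, and 8 of 18 matches were best with the own number. With the replicate block 6, 4 and 7 genes passed, as without it. With 3 hearts per stage, a two-sided exact test of 2 stages cannot go below 0.1.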
